A study of Mus musculus with 22 samples.

Results

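Ventricular cardiomyocytes of CASK KO mice were compared with those of WT mice, and CASK control cardiomyocytes, which come from the same line as CASK KO, were set beside both. The comparison rests on 8 of the 22 libraries of the series, 3 of CASK KO and 5 of WT, chosen by their sample titles, with 3 CASK control libraries added. CASK KO mice carried MHC-Cre and floxed Cask (CASK fl/fl), were of mixed strain, and were 11.3, 10.6 and 10.1 weeks old. CASK control mice carried MHC-Cre with an unfloxed Cask gene, were also of mixed strain, and were 12.4, 12.7 and 11 weeks old. WT mice, which serve as controls of the dystrophin-deficient line in the series, had neither Cre nor a floxed allele. They were C57Bl/6J (replicates 1 and 2), C57Bl/6 (replicates 3 and 4) or of mixed strain backcrossed to C57Bl/6 (replicate 5), and were 12.9, 12.9, 13.9, 14.7 and 10.9 weeks old. Mice of all groups were male. The MHC promoter drives Cre in cardiomyocytes, the floxed part of Cask is its first exon, and the cells were isolated by collagenase on a Langendorff system. Because CASK KO and WT differ in Cre, strain and floxed alleles as well as in CASK, these cannot be told apart in their comparison. The paper also holds a batch effect from separate sequencing rounds likely among the WT mice. Rounds were not modelled, so round and group cannot be told apart either. CASK KO and CASK control share Cre and strain label. The question addressed is whether CASK KO cells lie closer to WT than the CASK control cells do.

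CASK is a scaffold protein of the membrane-associated guanylate kinase family, which binds ion channels and adhesion molecules at the cell membrane and has also been placed in the nucleus, where it acts with transcription factors. In the heart it is known for regulating the sodium channel at the lateral membrane of cardiomyocytes. The alpha-MHC promoter, used here for Cre, is active in ventricular cardiomyocytes after birth. The lists read below include targets of p53, a transcription factor activated by DNA damage, the fetal gene program of the stressed heart, and the circadian clock, a loop of transcription factors that runs in nearly every cell. Members and lists were chosen with earlier results of these data known. An excess of their members over the share of all genes is thus a description and no test.

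The 8 CASK KO and WT libraries held 24253610 to 42159185 counts. Ribosomal RNA took 0.262 to 0.760% of read pairs in CASK KO and 0.622 to 7.86% in WT. Mitochondrially encoded genes took 30.4 to 45.8% of counts in CASK KO and 27.4 to 54.4% in WT, and read pairs outside annotated genes took 4.24 to 12.6% of read pairs in CASK KO and 2.45 to 10.3% in WT. WT replicate 3 stood apart from the other WT libraries, and values without it are given beside the lists whose median it moves most. Of the markers of the labelled cell type, 8 of 8 ventricular cardiomyocyte genes were detected, with a summed level of 46060 to 56097 CPM (counts scaled to TMM-adjusted library size) in CASK KO and 43808 to 59663 CPM in WT, and no marker was called. Atrial markers summed to 36.2 to 77.4 CPM in CASK KO and 44.3 to 96.9 CPM in WT, with 7 of 8 tested markers lower in CASK KO, 3 of them at an unadjusted p under 0.05 (2.11% of all genes), and a median log2 fold change of -1.01. Leukocyte markers summed to 52.9 to 80.9 CPM in CASK KO and 35.5 to 65.0 CPM in WT, with 8 of 9 tested markers higher and 1 of them at an unadjusted p under 0.05 (1.49% of all genes). Fibroblast, endothelial and mural sums overlapped between both groups, and the mural sum includes Abcc9, which the paper also reports in cardiomyocytes. Red blood cell markers summed to 1.33 to 5.17 CPM in CASK KO and 1.82 to 36.1 CPM in WT, with 4 of 4 tested markers lower and 3 of them at an unadjusted p under 0.05 (2.11% of all genes). The WT median of this sum was 4.30 CPM, inside the CASK KO range. Hbb-bs had 53, 19 and 43 counts in CASK KO, against 520, 62, 130, 43 and 23 in WT. The part of these cells in the results was not tested. Fewer cells of a type and less RNA per cell cannot be told apart in such bulk libraries.

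Cask, on chromosome X (chrX:13517080-13851367, minus strand, GRCm38), was the first gene read, since it checks the labels. Cask was at 2.38, 1.51 and 0.59 CPM in CASK KO, against 7.27, 7.99, 5.70, 9.84 and 6.44 CPM in WT. The 3 CASK KO libraries lay below all 5 WT libraries, at 20.1% of the WT mean. Its log2 fold change was -2.32 ± 0.40 (standard error), but over all genes the test was not passed (adjusted p = 0.234 with edgeR's quasi-likelihood test). It passed the threshold of 0.01 with DESeq2's Wald test (adjusted p = 5.66e-06), with no filter on low counts (adjusted p = 0.00231) and with all 6 groups of the series in 1 model (adjusted p = 0.00135), at a log2 fold change of -2.33, -2.33 and -2.32. Over all alternatives its adjusted p ran between 5.66e-06 and 0.759. In CASK control, which has Cre but an unfloxed gene, Cask was at 9.72, 8.70 and 8.65 CPM, which overlaps WT. Reads from exons other than the floxed one, and from cells that do not express Cre, remain in such counts, so the residual level is no measure of the protein.

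Across all genes, few differences between CASK KO and WT passed the test. Of 14627 genes tested, 1 was called at an adjusted p of 0.01 (0.00684%), and 3 at 0.05 (0.0205%). At an unadjusted p under 0.05 there were 526 genes (3.6%), 218 higher (1.49%) and 308 lower (2.11%) in CASK KO. In 590 genes (4.03%) the CASK KO and WT libraries did not overlap, of which 315 (2.15%) were higher and 275 (1.88%) lower in CASK KO. The median size of the log2 fold change was 0.183, and 396 genes (2.71%) exceeded 1. By the same test, CASK control against WT gave 60 called genes of 14419 (0.416%), 45 higher (0.312%) and 15 lower (0.104%), with a median size of 0.271 and 1342 genes (9.31%) above 1. There, 7.46% of all genes were higher at an unadjusted p under 0.05, and 7.61% were higher without overlap. Both comparisons use the same 5 WT libraries. In CASK KO against CASK control, 0 of 14287 genes were called by edgeR, with 1270 (8.89%) at an unadjusted p under 0.05, of which 626 (4.38%) were lower in CASK KO. Without overlap there, 882 genes (6.17%) were higher and 1175 (8.22%) lower in CASK KO. DESeq2 called 108 genes there, and edgeR called 15 genes, 5 higher and 10 lower in CASK KO, with the replicate numbers of these groups taken as pairs.

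The counts of called genes moved with single libraries. In CASK KO against WT, the 1 call was lost without CASK KO replicate 3 and without each of WT replicates 1 to 5, and without CASK KO replicate 2 Kcnj14 was called in its place. In CASK control against WT, 4 genes were called without CASK control replicate 1 or 2, 6 without WT replicate 1 or 2, and 10 without WT replicate 4, but 52 without CASK control replicate 3, 62 without WT replicate 3 and 59 without WT replicate 5.

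The gene called in CASK KO against WT was Rps15a-ps8, a pseudogene of the ribosomal protein gene Rps15a on chromosome 4, named here after its value was seen. It had 1.65, 7.55 and 6.14 CPM in CASK KO, against 0, 0.030, 0, 0 and 0.043 CPM in WT (adjusted p = 0.00828). In counts, CASK KO held 582 and WT held 2, a ratio of 355 after scaling by library size with a counting interval of 97.8 to 2938 (exact, 95%). The CASK control libraries held 0, 0 and 5.18 CPM, so 1 of these 3 lay in the range of CASK KO and the other two at 0. Its adjusted p was 0.328 with 3 groups and 0.0492 with 6 groups in 1 model, and lay between 2.31e-11 and 0.328 over all alternatives. Since reads of near-identical copies can be exchanged between a pseudogene and its parent gene, this level is uncertain.

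The distance of each library to WT was measured over 14972 genes as the root mean square difference in log2 CPM. CASK KO libraries lay at 0.774, 0.773 and 0.660 from the WT libraries on average, and CASK control libraries at 0.813, 0.894 and 0.780. All 3 CASK KO libraries were thus nearer to WT than all 3 CASK control libraries. The means were 0.736 ± 0.065 for CASK KO and 0.829 ± 0.059 for CASK control (SD, n = 3 each), a difference of -0.0933 (two-sided exact permutation test, p = 0.1, the smallest that 3 against 3 allows). This test takes the libraries as unpaired. Those with the same number in these groups deviated together, but whether they are pairs cannot be told, and no paired test was run. CASK KO stayed nearer in mean under each of the 18 alternative settings, with p between 0.1 and 0.4. The difference was -0.0556 without CASK KO replicate 3 and -0.0606 without CASK control replicate 2, and -0.118 at the other end, without CASK control replicate 3.

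**Figure D1:**
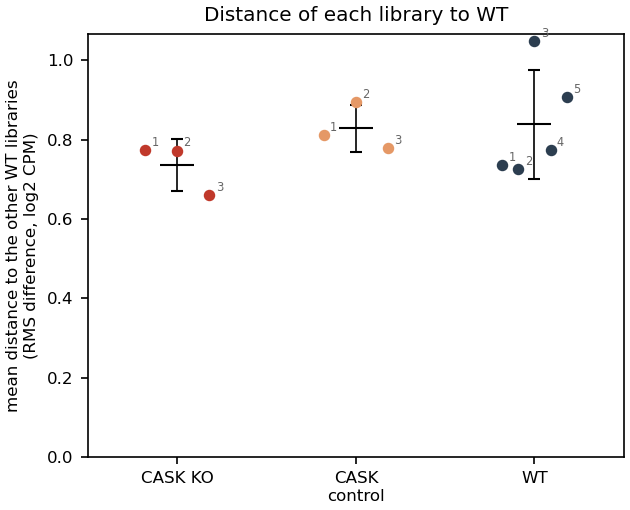
Mean distance of each library to the WT libraries (to the other WT libraries for WT), as root mean square difference in log2 CPM on the vertical axis, for CASK KO, CASK control and WT; numbers are replicates, bars are mean and SD. CASK KO lies between 0.660 and 0.774, below CASK control at 0.780 to 0.894, and WT spans 0.725 to 1.05.

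WT libraries themselves lay at 0.737, 0.725, 1.05, 0.775 and 0.908 from the other WT libraries. The CASK KO libraries thus lay in the lower part of the WT values or below them, and the WT mean of 0.839 ± 0.138 (SD, n = 5) includes replicates 3 and 5, the farthest from the others. CASK KO and CASK control libraries were at 0.666 from each other on average, beside 0.564 within CASK control. The distance between the CASK groups was thus 0.666 beside 0.649 among the CASK KO libraries themselves, which was not tested.

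The 60 genes called in CASK control against WT were then read in CASK KO. They were chosen on the CASK control and WT libraries, so an intermediate position of CASK KO is a description and no test. The 45 genes higher in CASK control had a median log2 fold change of 0.84 in CASK KO against WT (40 tested), beside 2.39 in CASK control against WT and -1.43 in CASK KO against CASK control. The 15 lower genes had medians of -0.77 in CASK KO against WT, -2.28 in CASK control against WT and 1.28 in CASK KO against CASK control. Mean CASK KO expression lay between CASK control and WT in 44 of the 45 and in 15 of the 15 genes, beside 50.5% of all genes tested. It was nearer to WT than to CASK control in 36 of 45 and in 9 of 15 of them, beside 52.4% of all genes. None was called in CASK KO against WT, and 26 and 11 were at an unadjusted p under 0.05.

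Genes of the stressed heart were among these. Nppa, which encodes atrial natriuretic peptide, was at 26.3, 37.4 and 26.6 CPM in CASK KO, against 7.78, 14.6, 7.75, 7.09 and 22.6 CPM in WT. CASK KO lay above all WT libraries, with a log2 fold change of 1.33 that did not pass (adjusted p = 0.925), and CASK control was far above both, at 273, 521 and 158 CPM. Acta1 encodes the alpha-actin of skeletal muscle, which the fetal heart also makes, and was at 581, 641 and 346 CPM in CASK KO, against 217, 298, 374, 129 and 374 CPM in WT, and overlapped. CASK control had 2906, 3127 and 1100.3 CPM, far above both. Mybpc2, which encodes a myosin-binding protein of fast skeletal fibres, averaged 21.8 ± 4.5 CPM in CASK KO, 76.0 ± 12.2 CPM in CASK control (SD, n = 3 each) and 14.6 ± 2.28 CPM in WT (SD, n = 5). Over the fetal and hypertrophic stress list, 18 genes were tested in CASK KO against WT, 10 higher and 8 lower, none called. The median log2 fold change was 0.08, with members from -1.63 to 1.33. At an unadjusted p under 0.05, 4 were higher and 2 lower, beside 1.49 and 2.11% of all genes. In CASK control against WT, 4 of 18 were called, beside 0.416% of all genes, and the median was 1.16.

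**Figure D2:**
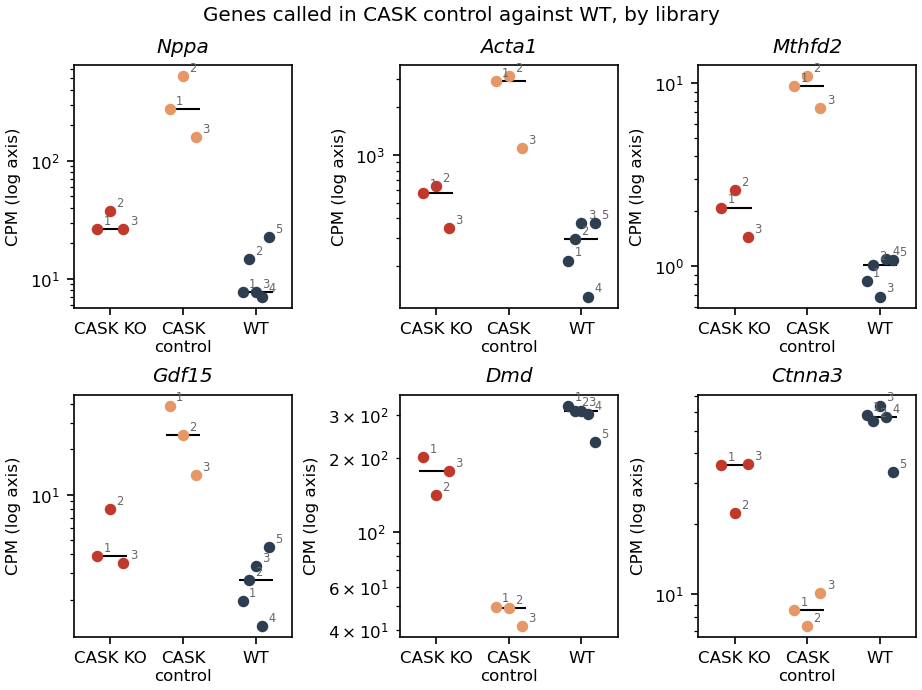
CPM on a log axis of 6 genes named from those called in CASK control against WT, in CASK KO, CASK control and WT; numbers are replicates, lines are medians. Nppa is at 26.3 to 37.4 CPM in CASK KO, 158 to 521 CPM in CASK control and 7.09 to 22.6 CPM in WT.

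Genes of serine and folate metabolism and of the integrated stress response were read next. Mthfd2, a mitochondrial enzyme of folate metabolism, was at 2.09, 2.61 and 1.45 CPM in CASK KO, against 0.831, 1.02, 0.684, 1.09 and 1.08 CPM in WT, with no overlap and an adjusted p of 0.843. CASK control had 9.65, 10.9 and 7.36 CPM. Gdf15, a stress-induced secreted factor, had 3.90, 8.02 and 3.48 CPM in CASK KO, against 1.96, 2.70, 3.36, 1.34 and 4.45 CPM in WT. CASK KO and WT overlapped, and CASK control was at 39.1, 24.999 and 13.5 CPM. The list of serine, folate and integrated stress genes had a median log2 fold change of 0.20 in CASK KO against WT (20 tested, none called) and 0.69 in CASK control against WT (22 tested, 4 called, beside 0.416% of all genes). Timp1, an inhibitor of matrix proteases, had 1.06, 2.32 and 0.67 CPM in CASK KO, 6.73, 9.17 and 2.93 CPM in CASK control, and 0.505, 0.601, 1.37, 0.406 and 0.649 CPM in WT. Lgals3, a lectin of macrophages and injured tissue, averaged 1.02 ± 0.571 CPM in CASK KO and 6.51 ± 3.75 CPM in CASK control (SD, n = 3 each), and 0.533 ± 0.271 CPM in WT (SD, n = 5). Both genes overlapped between CASK KO and WT, and every CASK control library lay above all libraries of CASK KO and WT. The extracellular matrix list had medians of -0.01 in CASK KO against WT and 0.59 in CASK control against WT.

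Among the genes lower in CASK control, Dmd, which encodes dystrophin, was at 201, 141 and 177 CPM in CASK KO, against 327, 311, 312, 301 and 232 CPM in WT. CASK KO lay below all WT libraries, with a log2 fold change of -0.77 ± 0.20 that did not pass (adjusted p = 0.829). CASK control had 49.7, 49.1 and 41.6 CPM. Ctnna3 encodes alpha-T-catenin, which links cadherins to actin at intercalated discs, and was at 35.6, 22.1 and 36.0 CPM in CASK KO, against 58.2, 54.8, 64.0, 57.3 and 33.4 CPM in WT, with 1 WT library, replicate 5, in the range of CASK KO. CASK control had 8.58, 7.34 and 10.1 CPM. Dpyd, which degrades pyrimidines, averaged 7.06 ± 0.642 CPM in CASK KO and 10.9 ± 1.51 CPM in WT. Acsm5, an acyl-CoA synthetase, had a log2 fold change of -1.21 (adjusted p = 0.829). Poln, a DNA polymerase, had one of -0.50 (adjusted p = 0.999), which was -1.09 without CASK KO replicate 2 and -0.24 without CASK KO replicate 3.

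Several p53 targets lay above WT in both groups of the CASK line. Phlda3, a p53-induced repressor of Akt, was at 7.16, 9.63 and 8.04 CPM in CASK KO, against 2.85, 2.25, 2.28, 3.03 and 2.90 CPM in WT. All CASK KO libraries lay above all WT libraries, at a log2 fold change of 1.63 ± 0.19 (adjusted p = 0.0276, short of 0.01), and it was called with DESeq2 (adjusted p = 4.09e-10) and with 6 groups in 1 model (adjusted p = 0.00135). Over all alternatives its adjusted p lay between 4.09e-10 and 0.32. CASK control was at 17.1, 17.7 and 14.6 CPM, above CASK KO. Cdkn1a, the cell cycle inhibitor p21, was at 11.4, 19.0 and 14.9 CPM in CASK KO, against 4.51, 4.30, 5.07, 5.09 and 10.3 CPM in WT (adjusted p = 0.663). Eda2r, which encodes a receptor, was at 5.01, 4.07 and 6.08 CPM in CASK KO, against 2.26, 1.62, 1.71, 3.22 and 2.42 CPM in WT. Aen, an exonuclease of apoptosis, was at 32.0, 44.2 and 39.0 CPM in CASK KO, against 23.0, 27.2, 15.4, 21.6 and 30.7 CPM in WT. These 4 genes did not overlap between CASK KO and WT. Of 14 p53 targets tested, 12 were higher and 2 lower, 4 were at an unadjusted p under 0.05 in the higher direction, beside 1.49% of all genes, and the median was 0.25. In CASK control against WT the median was 0.40, and 2 of 14 were called, beside 0.416% of all genes.

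**Figure D3:**
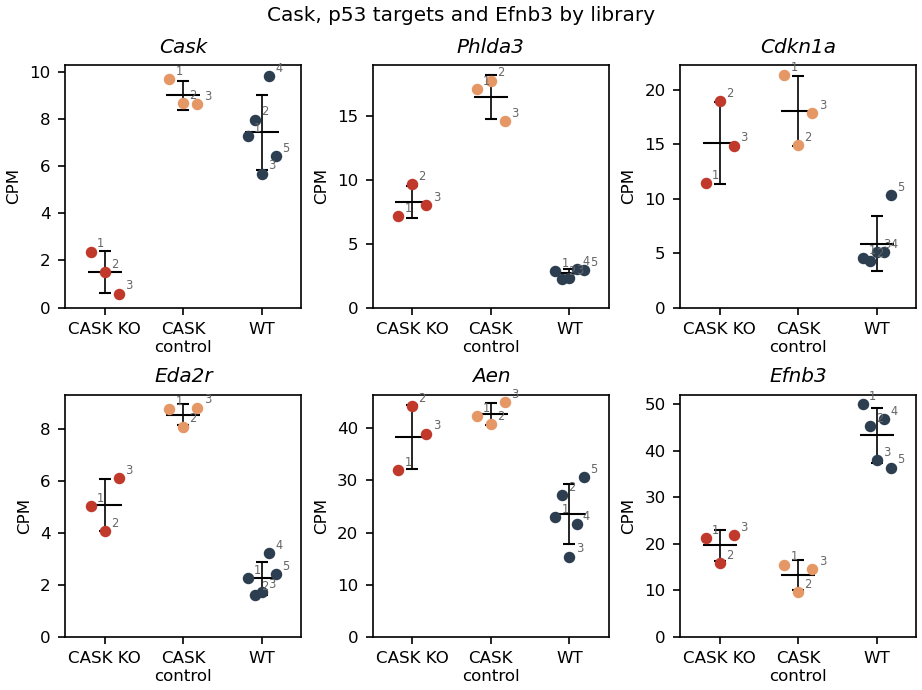
CPM of Cask, 4 p53 targets and Efnb3 in CASK KO, CASK control and WT; numbers are replicates, bars are mean and SD. Phlda3 is at 7.16 to 9.63 CPM in CASK KO, 14.6 to 17.7 CPM in CASK control and 2.25 to 3.03 CPM in WT.

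Other genes lay below WT in every CASK KO library, which was a condition of their choice. None was called in CASK KO against WT by edgeR with all 8 libraries, and all CASK control libraries also lay below WT. Efnb3, an ephrin ligand, was at 21.3, 15.9 and 21.9 CPM in CASK KO, against 50.1, 45.3, 38.1, 46.9 and 36.4 CPM in WT. Exoc2, a subunit of the exocyst, averaged 10.6 ± 0.921 CPM in CASK KO and 16.8 ± 0.801 CPM in WT, and Wif1, a secreted Wnt inhibitor, averaged 1.59 ± 0.074 CPM in CASK KO and 3.64 ± 0.706 CPM in WT. Alox5, Cebpb and Cacna1s, which encode a lipoxygenase, a transcription factor and a skeletal calcium channel, had log2 fold changes of -1.06, -1.86 and -1.05 (adjusted p = 0.253, 0.764 and 0.764). In CASK control against WT these were -1.03, -1.84 and -1.59. CASK control averaged 13.3 CPM for Efnb3, 7.08 CPM for Exoc2 and 0.906 CPM for Wif1. These 3 genes were called in CASK control against WT by edgeR (adjusted p = 0.00454, 0.00387 and 0.00695).

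A further group of genes lay above WT in every CASK KO library, which was a condition of their choice. None was called in CASK KO against WT by edgeR with all 8 libraries, and all CASK control libraries also lay above WT. Ndnf, a secreted factor, was at 37.6, 19.999 and 22.8 CPM in CASK KO, against 7.54, 9.04, 7.98, 7.99 and 2.68 CPM in WT, and Klhdc7a, a Kelch domain gene, at 28.4, 13.1 and 17.3 CPM in CASK KO, against 8.46, 7.27, 8.94, 5.37 and 5.84 CPM in WT. CASK control averaged 29.9 ± 7.28 CPM for Ndnf and 20.8 ± 3.83 CPM for Klhdc7a (SD, n = 3), inside or close to the range of CASK KO. Sntb1, a syntrophin of the dystrophin complex, was at 4.21, 3.26 and 3.403 CPM in CASK KO, against 1.66, 1.02, 1.88, 1.59 and 1.08 CPM in WT. Slc38a1, a glutamine transporter, averaged 21.9 ± 7.86 CPM in CASK KO and 10.3 ± 1.52 CPM in WT, and Ptgds, a prostaglandin synthase, averaged 298 ± 96.4 CPM in CASK KO and 144 ± 22.6 CPM in WT. CASK control averaged 8.12 CPM for Sntb1, 33.4 CPM for Slc38a1 and 411 CPM for Ptgds. These 3 genes were called in CASK control against WT by edgeR (adjusted p = 0.00319, 0.0035 and 0.00723). Acta2, the smooth muscle actin, averaged 103 ± 41.6 CPM in CASK KO, 198 ± 125 CPM in CASK control and 34.8 ± 12.7 CPM in WT. Acta2 is also high in mural cells, whose markers summed to 1664 to 1837 CPM in CASK KO and 1407 to 1838 CPM in WT. Those markers include Acta2 itself and Abcc9, which the paper reports in cardiomyocytes, so this sum cannot show the level of mural cells. Of Gdpd3, a phospholipase on chromosome 7, 314 counts were found in CASK KO, 259 in CASK control and 21 in WT. Kcnj14, an inward rectifier channel of chromosome 7, was at 26.9, 1.36 and 30.0 CPM in CASK KO, against 1.04, 0.871, 0.171, 0.812 and 1.25 CPM in WT. In CASK KO 1 library lay just above the WT range and 2 far above it, and the CASK control libraries were also spread, at 78.6, 4.39 and 3.44 CPM. Kcnj14 was not called by edgeR with all 8 libraries (adjusted p = 0.243) but was without CASK KO replicate 2 (0.00816), with DESeq2 (0.00138) and with no filter on low counts (0.000168), over a range of 0.000168 to 0.862 for all alternatives.

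To show what the clock genes hold in their promoters, the RefSeq windows (GRCm38.p6, 250 bases before to 50 after the start) of 3 of them are given, Ciart and Per3 from the lower members and Cry1 from the higher ones, chosen after the data were seen. Capitals mark the E-box CACGTG, the element bound by the Arntl and Clock pair, and the D-box TTATGTAA (read on both strands), the element bound by Dbp, Tef and Hlf.
Ciart (chr3:95882179-95882478, minus strand): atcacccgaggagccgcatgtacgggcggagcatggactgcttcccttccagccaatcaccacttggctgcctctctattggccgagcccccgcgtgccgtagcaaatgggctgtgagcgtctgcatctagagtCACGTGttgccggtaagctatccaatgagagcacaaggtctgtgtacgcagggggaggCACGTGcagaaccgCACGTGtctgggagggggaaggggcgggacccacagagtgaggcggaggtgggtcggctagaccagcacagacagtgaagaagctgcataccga
Per3 (chr4:151044616-151044915, minus strand): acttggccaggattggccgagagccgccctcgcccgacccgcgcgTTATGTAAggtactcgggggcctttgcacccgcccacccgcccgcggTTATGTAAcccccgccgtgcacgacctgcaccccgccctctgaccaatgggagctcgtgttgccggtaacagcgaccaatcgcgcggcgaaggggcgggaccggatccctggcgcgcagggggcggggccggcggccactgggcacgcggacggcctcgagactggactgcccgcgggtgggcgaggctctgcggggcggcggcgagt
Cry1 (chr10:85185005-85185304, minus strand): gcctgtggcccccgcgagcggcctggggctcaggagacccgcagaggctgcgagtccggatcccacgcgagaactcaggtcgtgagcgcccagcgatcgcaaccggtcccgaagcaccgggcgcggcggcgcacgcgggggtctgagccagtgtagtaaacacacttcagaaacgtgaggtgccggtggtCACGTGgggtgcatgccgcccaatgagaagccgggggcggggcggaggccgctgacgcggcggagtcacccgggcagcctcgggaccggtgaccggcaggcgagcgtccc
Ciart thus held 3 E-boxes, Cry1 held 1 and Per3 held 2 D-boxes. Of the 16 clock genes found in the promoter table, with 21 windows, 5 had an E-box in at least 1 window (Bhlhe41, Ciart, Cry1, Per1 and Tef) and 1 had a D-box. By window these were 6 and 1 of 21, beside 7.15% and 0.938% of all 32851 windows. Both lower and higher members are among them, and a match is a description of letters, not a site in use. Bhlhe40 and Per2 were among the genes not matched.

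Clock genes lay below WT for the most part, with Arntl and Cry1 above it. Dbp, a clock-controlled transcription factor, was at 4.21, 3.84 and 4.37 CPM in CASK KO, against 13.2, 15.3, 16.7, 15.5 and 20.8 CPM in WT. Its log2 fold change was -1.97 ± 0.20 (adjusted p = 0.0105), and it was called when mitochondrially encoded genes were left out of the scaling (adjusted p = 0.00766). Over all alternatives this p lay between 1.07e-17 and 0.245. Per2, a repressor of the clock, was at 1.32, 1.98 and 1.501 CPM in CASK KO, against 6.44, 5.65, 12.9, 7.78 and 7.87 CPM in WT (adjusted p = 0.0542). Ciart, another repressor, and Tef, a factor of the same family as Dbp, had log2 fold changes of -2.04 and -0.81. None of these libraries overlapped between CASK KO and WT. Per1 was at 16.3, 7.13 and 11.1 CPM in CASK KO, against 40.6, 32.8, 81.9, 26.4 and 20.5 CPM in WT, and Per3 at 6.38, 3.03 and 4.18 CPM in CASK KO, against 17.4, 8.56, 24.0, 11.8 and 8.78 CPM in WT. Hlf, Bhlhe40 and Cry2 also lay below all WT libraries. Nr1d1 and Nr1d2, repressors of Arntl, overlapped WT. Arntl, the activator of the loop, was in contrast higher, at 12.5, 14.4 and 14.0 CPM in CASK KO, against 8.67, 5.98, 5.92, 6.56 and 3.63 CPM in WT, and Cry1, a repressor, was at 4.73, 3.97 and 5.09 CPM in CASK KO, against 3.24, 2.85, 1.99, 3.59 and 2.16 CPM in WT. Per1, Per3, Hlf, Bhlhe40, Cry1, Cry2, Nr1d1 and Nr1d2 were chosen after their values were seen.

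**Figure D4:**
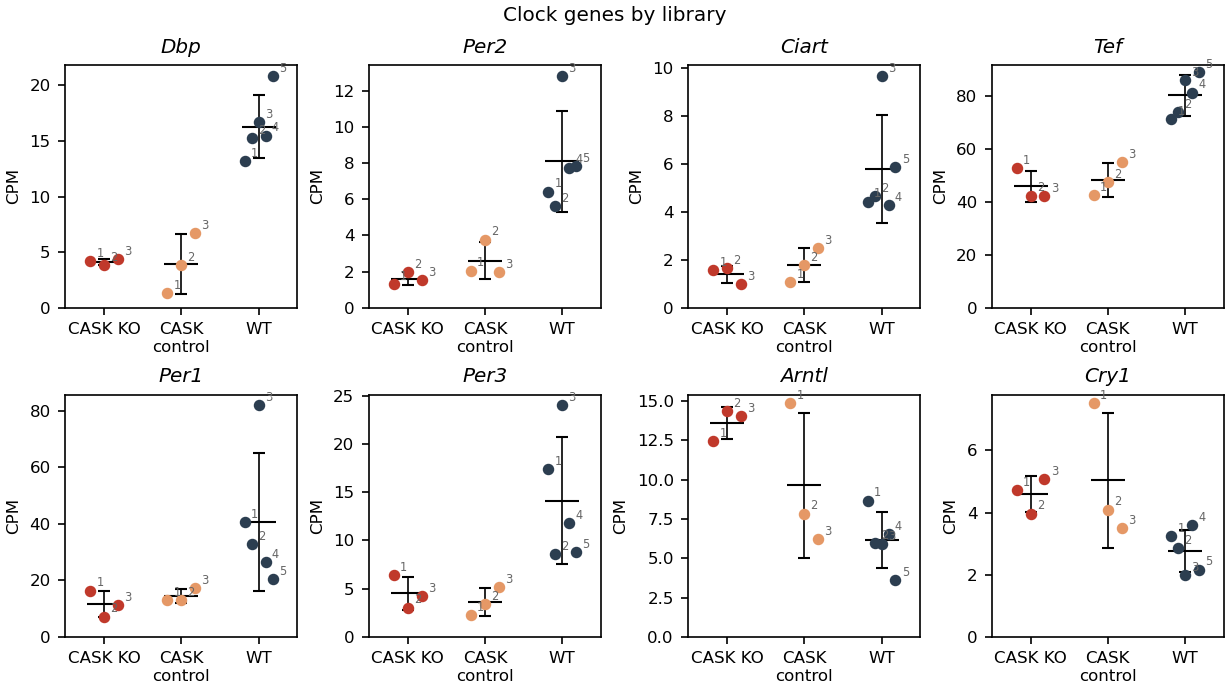
CPM of 8 clock genes in CASK KO, CASK control and WT; numbers are replicates, bars are mean and SD. Dbp is at 3.84 to 4.37 CPM in CASK KO, 1.28 to 6.69 CPM in CASK control and 13.2 to 20.8 CPM in WT.

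In all, 19 of 19 listed clock genes were tested, 5 higher and 14 lower in CASK KO, none of them called by edgeR (0.00684% of all genes were), while DESeq2 called 4, all lower. At an unadjusted p under 0.05, 2 were higher and 10 lower, beside 1.49 and 2.11% of all genes, and 2 were higher and 9 lower without overlap, beside 2.15 and 1.88%. The median log2 fold change was -0.66, beside -0.01 over all genes. Without WT replicate 3 it was -0.51, with 2 higher and 10 lower at the same p, and without WT replicates 3 and 5 together -0.63, with 2 and 11. CASK control against the same WT libraries had a median of -0.66. All mice were killed in a late morning window, but the hour of each mouse is not given in the sources used here, so hour and group cannot be told apart.

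Most immediate-early and heat shock genes, which many stimuli induce within minutes, also lay below WT. Nr4a1, an immediate-early nuclear receptor, was at 22.3, 53.4 and 49.8 CPM in CASK KO, against 92.9, 93.6, 202, 72.9 and 103 CPM in WT (adjusted p = 0.893). Fos was at 45.7, 98.8 and 99.0 CPM in CASK KO, against 120, 106, 244, 116 and 106 CPM in WT, and Dusp1, a phosphatase of the same response, at 45.8, 49.97 and 58.3 CPM in CASK KO, against 66.0, 66.9, 124, 77.3 and 70.6 CPM in WT. Fos and Dusp1 were chosen after their values were seen. Atf3 and Fosl2 overlapped WT, with log2 fold changes of -1.26 and -1.04. The chaperone Hsph1 was the 1 member higher in CASK KO, at 51.5, 65.7 and 46.7 CPM in CASK KO, against 35.9, 36.5, 28.0, 31.7 and 31.7 CPM in WT. Of 23 genes tested, 1 was higher and 22 lower, 9 of these at an unadjusted p under 0.05 (2.11% of all genes) and 3 without overlap (1.88% of all genes), with a median of -0.79. Without WT replicate 3, the median was -0.52 with 5 lower at that p, without CASK KO replicate 1 it was -0.57 with 3, and without WT replicates 3 and 5 it was -0.42 with 4. CASK control against WT had a median of -0.82.

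Lists of cardiomyocyte structure and excitation lay near 0. Medians in CASK KO against WT were -0.01 for the sarcomere (21 tested), 0.05 for calcium handling (16), -0.12 for cardiac ion channels (28), 0.02 for the intercalated disc (16), -0.003 for the dystrophin complex (16) and -0.01 for partners of CASK and SAP97 (24), with no member called by edgeR in any of them. DESeq2 called 1 member of the partner list, which was Cask itself, and 1 higher gene of the dystrophin complex. Among these partners Cask was the 1 member without overlap, and Dlg1, which encodes SAP97, had 56.0, 52.6 and 52.8 CPM in CASK KO, against 54.3, 55.2, 42.7, 57.1 and 50.5 CPM in WT. Gja1, the main connexin of the ventricle, averaged 617 ± 31.3 CPM in CASK KO and 427 ± 86.0 CPM in WT, without overlap (adjusted p = 0.999). Hand2, of the bHLH factors that Id proteins bind, averaged 7.29 ± 1.6 CPM in CASK KO and 17.2 ± 5.67 CPM in WT, and its list had 2 higher and 17 lower of 19, with a median of -0.33 (-0.11 without WT replicate 3). Hk1, a hexokinase, averaged 173 ± 1.23 CPM in CASK KO and 122 ± 9.94 CPM in WT, and Sln, an atrial calcium pump regulator, was at 0.155, 2.72 and 2.17 CPM in CASK KO, against 4.69, 6.76, 5.24, 3.97 and 5.405 CPM in WT. Interferon response genes had a median of 0.13 (21 tested), glycolysis 0.08 (18), fatty acid oxidation -0.08 (26), the nuclear-encoded respiratory chain -0.05 (30), cytosolic ribosomal proteins -0.14 (25), non-polyadenylated RNAs -0.22 (19) and strain-linked genes -0.25 (19), with 0 members called by edgeR or by DESeq2. Several of these medians turned with 1 library. Without WT replicate 5 the respiratory chain was at 0.12 (23 higher, 7 lower) and ribosomal proteins at 0.26 (20 higher, 5 lower), and without CASK KO replicate 1 they were at 0.20 and 0.16. Without WT replicate 3 the respiratory chain was at -0.14, with 1 higher and 29 lower. With the replicate block they were at 0.10 and 0.33. Sarcomere, ion channel, dystrophin complex and intercalated disc medians also changed sign with 1 library left out, and no direction is read from any of these lists. Nuclear long non-coding RNAs had a median of 0.03 in CASK KO against WT, with 5 higher and 5 lower, and -0.88 in CASK control against WT. The median in CASK KO against WT was 0.39 without WT replicate 3, with 9 higher and 1 lower, and -0.21 without CASK KO replicate 1.

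Mitochondrially encoded messengers were all 13 lower in CASK KO, at a median of -0.84, with 0 of them called and 0 at an unadjusted p under 0.05. This rested on WT replicate 3. mt-Nd6 was at 176, 414 and 396 CPM in CASK KO, against 399, 290, 6694, 306 and 703 CPM in WT, and without that library the median of the list was -0.15, with 2 higher and 11 lower. The small cytoplasmic RNAs Rn7s1 and Rn7s2 were likewise high in that library: Rn7s1 was at 61.6, 134 and 183 CPM in CASK KO, against 128, 236, 1543, 128 and 524 CPM in WT. Their log2 fold changes of -1.997 and -1.99 had adjusted p of 0.999, and without WT replicate 3 they were -1.01 and -1.04.

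**Figure D5:**
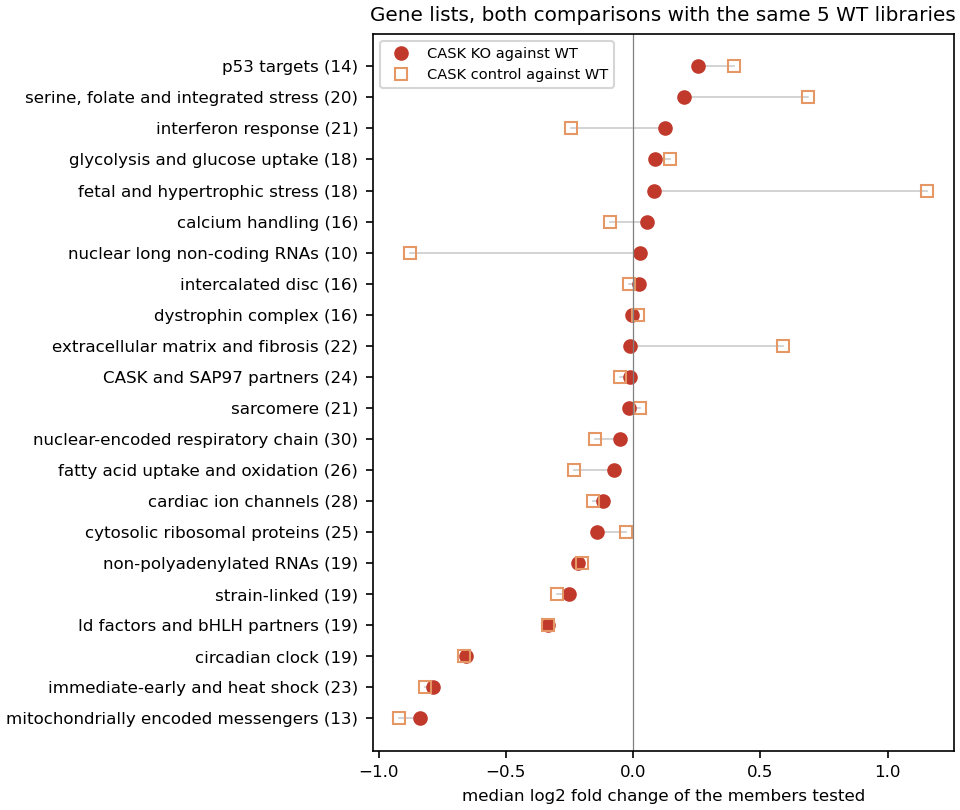
Median log2 fold change of the tested members of each gene list (number tested in CASK KO against WT in brackets) in CASK KO against WT (filled circles) and CASK control against WT (open squares), both set against the same 5 WT libraries. Medians of the fetal stress and matrix lists are near 0 in CASK KO and away from 0 in CASK control, at 0.08 against 1.16 for fetal stress. Single members of the fetal stress list ran from -1.63 to 1.33 in CASK KO against WT. The nuclear RNA list is at 0.03 in CASK KO, but at 0.39 without WT replicate 3, while the clock and immediate-early lists lie below 0 in both.

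The genes named as higher or lower in CASK KO against WT were also read in the SAP97 line of the series, of mixed strain. Its 3 SAP97 KO mice (MHC-Cre and SAP97 fl/fl) were 10.7, 11.3 and 13 weeks old. Its 3 SAP97 control mice (SAP97 fl/fl without Cre) were 10.6, 11.3 and 13 weeks old. The paper's methods call these controls Cre-negative, whereas its read metrics list them as WT with Cre. No library is shared with the CASK and WT groups. If the controls lack Cre, Cre and SAP97 deletion cannot be told apart in this line. Of 14083 genes tested there, 3 were called (0.0213%), 1 higher (0.0071%) and 2 lower (0.0142%). Of the 12 named higher genes, 11 were tested and 11 were higher in SAP97 KO. Their median log2 fold change was 1.45, beside 0.03 over all genes. Ndnf was called, at 30.1, 29.9 and 27.0 CPM in SAP97 KO, against 8.62, 8.42 and 8.78 CPM in SAP97 control (log2 fold change 1.79 ± 0.13, adjusted p = 0.00126). Phlda3 was at 7.97, 6.85 and 4.83 CPM in SAP97 KO, against 1.63, 1.04 and 2.29 CPM in SAP97 control, without overlap (adjusted p = 0.143).

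Of the 11 named lower genes other than Cask, 10 were lower in SAP97 KO, with a median of -0.52. Of the clock genes, Dbp had a log2 fold change of -0.38, Per2 of -0.16 and Tef of -0.12, with Ciart at 0.05, the 1 lower gene that was higher there, and Arntl at 0.26. Cask itself was at 7.78, 8.19 and 8.41 CPM in SAP97 KO, against 7.80, 8.46 and 8.25 CPM in SAP97 control. In the dystrophin-deficient mice, whose controls are the WT mice, Dbp averaged 7.68 CPM, Per2 2.82, Ciart 1.73, Tef 55.6 and Arntl 11.9. WT means on the same scale were 16.4, 8.17, 5.82, 80.8 and 6.19 CPM. Dbp ranged from 2.29 to 16.2 CPM in the dystrophin-deficient mice, and these differences were not tested.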

How the data were processed

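Reads of ribosomal RNA were taken out by the authors before alignment to GRCm38, and read pairs were counted per gene. Per the submitters' processing notes the tools were Bowtie2 2.2.1, TopHat2 2.0.13 and HTSeq 0.6.1. The deposited counts are whole numbers without scaling. The deposited TPM (counts over exon length, scaled per library), the deposited signal (counts divided by size factors within a comparison) and columns of the authors' fold changes and p-values were not used. The sources describe ribosomal depletion, whereas the labels also mention poly-A selection. Whether strand was used in counting is not given in the sources used here.

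Counts of the CASK and WT libraries come from separate deposited tables made with different annotation releases. They were joined by gene identifier, and 45471 of the 46813 shared genes, whose counts differed by a ratio of at most 1.1 between releases (pseudocount 10), were kept. Columns of WT replicates 4 and 5 in the table of all libraries follow another gene order and were read from the comparison table. Tests used edgeR 4.0.16 (R 4.3.3): filterByExpr, TMM scaling, quasi-likelihood F test of each pair of groups, Benjamini-Hochberg adjustment, calls at 0.01. Standard errors were obtained from the log2 fold change and its F value. As an alternative, DESeq2 1.42.0 was run. Printed CPM share 1 TMM scale over the 11 libraries. Those read with the SAP97 line and the dystrophin-deficient mice share a TMM scale over the libraries of all groups. Distances used log2 CPM with a prior count of 2. The scripts were tested on simulated data. Each library came from 1 mouse, and libraries of a group differed by more than sampling noise.

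By number, CASK KO and CASK control libraries deviated from their group means together (correlations 0.460, 0.242 and 0.204), which passed a pairing rule of every correlation above 0.1. CASK KO and WT did not pass it (0.488, 0.139 and -0.184). CASK KO replicate 2 and CASK control replicate 3, of unlike numbers, also reached 0.156. Deviations within a group of 3 are not independent, so whether equal numbers are pairs cannot be told. Named genes were Cask, 12 higher and 12 lower genes without overlap, with a symbol and at least 1 CPM on average (called genes first, then by smallest p), up to 4 members of each list by smallest p, by the same filters 6 higher and 6 lower genes of CASK control against WT, and the 3 largest changes above 100 CPM in WT. The text names a selection of these, and some items are not reported here. Others are named as chosen later. A motif search in called genes was not possible, since the called gene was a pseudogene. Members and lists were chosen with earlier results of these data known. Plots used matplotlib 3.10.9.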

Additional observations from a re-analysis of the deposited data

Results flagged for a closer look

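Within the 5 WT libraries, 11 of the 58 genes looked at had 1 library far from the rest, measured as the gap to the nearest library over the whole range (critical value 0.71), which chance exceeds in about 1 in 20 groups. Most genes looked at were chosen by their values in these same libraries, Fos, Dusp1 and Nr1d1 after those were seen. Genes of 1 library are also not independent, so the count is a description and no test. WT replicate 3 stood apart in 8 of them: the gap was 0.944 for Cebpb, 0.936 for mt-Nd6, 0.896 for Fos, 0.807 for Dusp1, 0.765 for Nr4a1, 0.748 for Timp1, 0.722 for Nr1d1 and 0.720 for Rn7s1. WT replicate 5 stood apart in 3: the gap was 0.867 for Cdkn1a, where it was the highest, 0.764 for Ndnf and 0.724 for Dmd, where it was the lowest.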

How the results depend on the processing

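The 57 genes named beside Cask kept their direction under every alternative run (56 where mitochondrially encoded genes were left out). In CASK KO against WT the 1 called gene became 3 at an adjusted p of 0.05, 2 with scaling without mitochondrially encoded genes, 22 with DESeq2, 12 with no filter on low counts, 8 with 6 groups in 1 model and 40 without the release filter. In CASK control against WT the 60 called genes became 225, 409 with DESeq2, 301 with no filter, 115 with 3 groups, 293 with 6 groups and 146 without the release filter, and in CASK KO against CASK control 0 became 108 with DESeq2, 201 with no filter, 1 with 3 groups and 9 with 6 groups. Chosen after seeing the data, the share of reads outside genes as a covariate gave 2 in CASK KO against WT, and leaving out WT replicates 3 and 5 gave 0. Leaving out 1 library gave 0 to 1, 4 to 62 and 0 to 0 called genes in these comparisons. The replicate block gave 1 in CASK KO against WT and 0 in CASK control against WT, whose numbers did not pass the pairing rule. It gave 15 in CASK KO against CASK control, where the pairing is uncertain. Cask was at -2.33 with DESeq2, -2.33 with no filter and -2.32 with 6 groups, each called. The causes were not tested, other than that the release filter removes genes counted differently by annotation.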
